A study of Mus musculus with 4 samples.

Results

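The 10 genes of epithelial junctions described here were taken as the rows of the expression table with the symbols *Cldn1*, *Cldn3*, *Cldn4*, *Cldn7*, *Cldn8*, *Cldn10*, *Ocln*, *Tjp1*, *F11r* and *Cdh1*. All 10 were found among the 52636 genes of the table, and each had UMIs in all 4 libraries. The table covers 32439 cells sorted by FACS as luminal from pooled thoracic and abdominal mammary glands of C57BL/6N mice aged 6 weeks. A pool of 3 mice was ErbB3+/+;MMTV-Cre (WT), the other pool of 3 mice was ErbB3V943R/V943R;MMTV-Cre (mutant), and each pool was sequenced as 2 droplet libraries, called A and B here. MMTV-Cre, a recombinase driven by a mammary tumour virus promoter that is active in mammary epithelium, was carried by both groups. In the mutant mice it switches a conditional allele to a form that encodes V943R, a change in the surface with which ERBB3 activates its partner kinases.

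Epithelial cells that line a duct are held together near the lumen by a belt of tight junctions and, below it, by adherens junctions. Claudins form the paired strands that close the space between neighbouring cells, and the set of claudins a cell makes sets which ions pass. Occludin and the junctional adhesion molecule JAM-A sit in or beside the strands, ZO-1 ties them to actin, and E-cadherin joins the adherens junctions. In the mammary gland these contacts seal the lumen and keep the secretory and hormone-sensing cells of the duct in a single sheet.

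Levels are in CPM, the UMIs of a gene per 1000000 UMIs of all genes, where a UMI, or unique molecular identifier, stands for 1 captured mRNA molecule. UMIs were first added up over the cells of each library or pool. The libraries come from the 3′ end of mRNA and count molecules, so CPM is not divided by gene length, and how well the 3′ end of each gene was captured is unknown. Intervals are 95% intervals for counting error (exact conditional binomial for log2 ratios, exact Poisson for levels of single clusters and exact Clopper-Pearson for shares of cells). There was 1 pool per genotype, so no test between genotypes is possible, and the spread between the 2 libraries of a pool is technical.

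The libraries held 6849 to 9627 cells and 30019745 to 38009351 UMIs, with median UMIs per cell of 3154 and 3677 in WT and of 3662 and 4027 in the mutant. Of 31923 cell barcodes, 511 occurred in more than 1 library. The deposited annotation places clusters 1 and 2 in luminal progenitors (LP, 3181 WT and 3123 mutant cells), cluster 3 in luminal intermediate cells (LI, 1143 and 952 cells) and clusters 4 to 11 in mature luminal cells (ML, 14188 and 9612 cells). Clusters 12 and 13 (126 and 114 cells) are named rare. Summed over 5 luminal progenitor markers (*Kit*, *Elf5*, *Aldh1a3*, *Csn3*, *Cd14*) the WT level was 4137 CPM in LP and 71.7 CPM in ML, and over 6 mature luminal markers (among them *Esr1*, *Pgr* and *Prlr*) it was 932 CPM in LP and 7651 CPM in ML, so the names match their markers. The 4 general luminal markers summed to 22004 CPM in all WT and 22721 CPM in all mutant cells. Summed markers of other cells were low in all WT and all mutant cells, at 22.2 and 22.3 CPM for 6 basal markers, 5.0 and 5.4 CPM for 5 endothelial markers, 21.1 and 17.3 CPM for 5 fibroblast markers and 72.1 and 91.8 CPM for 5 immune markers. The 5 markers of proliferation summed to 283 CPM in WT and 310 CPM in mutant cells. *Erbb3* itself had 60.9 and 63.3 CPM in the WT libraries and 29.8 and 30.8 CPM in the mutant libraries.

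*Cldn3* and *Cldn4* were the 2 members with the most UMIs, they lie close to each other on chromosome 5, and their levels ran in opposite directions between the luminal classes. *Cldn3* lies at chr5:134986214-134987472 on the plus strand and *Cldn4* at chr5:134945119-134946934 on the minus strand (GRCm38, GENCODE), 39279 bases apart, and each gene has 1 annotated transcript. The 250 bases before each start site are shown because the members of this pair differ in where they are high (RefSeq, GRCm38.p6, 5′ to 3′ on the strand of the gene). Capitals mark matches to 7 short motifs that were searched on both strands.
*Cldn3*, chr5:134985964-134986213, plus strand: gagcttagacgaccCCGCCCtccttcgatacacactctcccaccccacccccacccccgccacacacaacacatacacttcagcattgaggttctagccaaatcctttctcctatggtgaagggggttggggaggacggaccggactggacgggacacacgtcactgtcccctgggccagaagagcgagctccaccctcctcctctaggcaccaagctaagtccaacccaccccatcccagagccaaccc
*Cldn4*, chr5:134946935-134947184, minus strand: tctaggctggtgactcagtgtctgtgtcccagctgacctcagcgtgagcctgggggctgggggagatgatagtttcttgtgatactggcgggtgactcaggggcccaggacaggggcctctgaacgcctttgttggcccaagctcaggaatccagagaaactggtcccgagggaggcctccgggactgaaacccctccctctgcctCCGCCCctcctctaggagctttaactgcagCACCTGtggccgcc

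The *Cldn3* window held 1 match, CCGCCC, the KLF letters GGGCGG read on the other strand, 236 bases before the start. The *Cldn4* window held 2 matches that do not overlap, the same KLF letters 44 bases before the start and CACCTG, the E-box letters CAGGTG read on the other strand, 14 bases before the start. Among 32851 promoters of the same length, 32.7% held the KLF letters and 17.2% held the E-box letters, so both are common. The other motifs were found in neither window: the grainyhead letters AACNGGTT (1.79% of promoters), the FOXA letters TGTTTAC (3.17%), the GATA letters AGATAA (9.99%), the ETS letters AGGAAG (29.5%) and TATAAA (12.4%). Such matches are letters in a sequence, and no factor was measured here. Bases G and C made up 60.8% of the *Cldn3* and 62.0% of the *Cldn4* window, above the median of 52.4% over all promoters.

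*Cldn3*, a claudin that tightens the paracellular seal, had the highest level of the members in all 3 classes. In LP it reached 1913 and 1923 CPM in WT libraries A and B and 1833 and 1893 CPM in mutant libraries A and B. In ML it reached 693 and 713 CPM in WT and 622 and 649 CPM in the mutant. LI cells lay between the other classes in every library (998 and 1067 CPM in WT, 911 and 995 CPM in the mutant). Of the LI cells, 47.3% in WT and 50.6% in the mutant were among the 6% with the highest doublet scores. Their median UMIs per cell were 5620 and 6849.5, against 2018 and 2067 in LP and 3508 and 4069.5 in ML. The part of doublets (2 cells read as 1) in LI levels was not tested. LP exceeded ML by a log2 ratio of 1.45 (1.42 to 1.47) in WT and of 1.55 (1.53 to 1.58) in the mutant. Among clusters, cluster 1 was highest (2001 CPM in WT), followed by cluster 2 (1646 CPM), and ML cluster 5 was lowest (542 CPM).

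*Cldn4*, a claudin with a chloride-selective or sealing action depending on the tissue, showed the reverse order. Its level in LP was 421 and 422 CPM in WT and 368 and 392 CPM in the mutant, against 628 and 637 CPM (WT) and 573 and 584 CPM (mutant) in ML. The log2 ratio of LP over ML was -0.58 (-0.63 to -0.54) in WT, and mutant cells had -0.60 (-0.65 to -0.55). The highest level in WT was that of cluster 10 (803.5 CPM) and the lowest that of cluster 2 (248 CPM). Within ML, clusters 5 and 6 (408 and 403 CPM in WT, intervals overlapping) had less than the 6 other ML clusters, which ranged from 609 to 803.5 CPM. The number of *Cldn3* UMIs per *Cldn4* UMI was therefore 4.55 in LP, 1.79 in LI and 1.11 in ML of WT, and 4.89, 1.78 and 1.10 in the mutant. It ranged from 6.64 in cluster 2 to 0.80 in cluster 10 of WT. The order of classes did not hold for every cluster. In LP cluster 1 *Cldn4* had 475 CPM in WT and 427 CPM in the mutant. ML clusters 5 (408 and 380 CPM) and 6 (403 and 390 CPM) had less.

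*Cldn7* (chr11:69964779-69967885, plus strand), a claudin found along the lateral membrane as well as in the tight junction, followed *Cldn3* with a smaller difference. It had 846 and 877 CPM in LP and 486 and 501 CPM in ML of WT, and 826 and 820 CPM in LP and 492 and 483 CPM in ML of the mutant. The LP over ML log2 ratio was 0.80 (0.77 to 0.84) in WT, and mutant cells had 0.76 (0.72 to 0.79). Clusters 1 and 2 were not apart (867 and 846 CPM in WT, intervals overlapping), and clusters 4, 8, 9, 10 and 11 of WT lay together between 449 and 477 CPM.

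*Cldn10*, a claudin that forms ion channels rather than a seal, had the highest ratio of ML over LP of the members. The gene (chr14:118787908-118875489, plus strand, 3 transcripts) has 2 start sites for isoforms with different ion selectivity, which a 3′ count cannot separate. Its level was 41.1 and 52.2 CPM in LP and 245 and 261 CPM in ML of WT, and 36.4 and 40.2 CPM in LP and 231 and 241 CPM in ML of the mutant. All 4 ML values were above 200 CPM and all 4 LP values below 60 CPM. ML exceeded LP 5.39-fold in WT and 6.14-fold in the mutant, with log2 ratios of LP over ML of -2.43 (-2.58 to -2.29) and -2.62 (-2.78 to -2.46). LI cells had 173 and 199.7 CPM in WT and 167 and 188 CPM in the mutant. Cluster 11 (302 CPM) and cluster 6 (296 CPM) were highest in WT and were not apart, and cluster 10 was the lowest of the ML clusters (176 CPM).

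*Cldn1*, a claudin needed for the barrier of the skin, was the rarest member and had the highest ratio of LP over ML. The gene lies at chr16:26356642-26371841 on the minus strand. In LP it had 12.6 and 18.3 CPM in WT and 23.0 and 20.9 CPM in the mutant, from 133 and 190 UMIs. LI cells had 5.05 and 4.68 CPM in WT and 6.53 and 6.61 CPM in the mutant. In ML only 3 UMIs were counted in 14188 WT cells (0.05 CPM) and 12 UMIs in 9612 mutant cells (0.26 CPM). The log2 ratio of LP over ML was 8.21 (6.63 to 10.50) in WT, which rests on those 3 UMIs, and 6.38 (5.54 to 7.36) in the mutant. Clusters 4, 5, 6, 8, 9 and 10 of WT had no *Cldn1* UMI, with upper limits of 0.35 to 5.17 CPM.

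*Cldn8* (chr16:88560828-88563183, minus strand), a claudin of the distal nephron and other tight epithelia, had slightly less in LP than in ML. It had 44.1 and 50.8 CPM in LP and 54.3 and 62.9 CPM in ML of WT, and 52.1 and 51.6 CPM in LP and 57.4 and 68.5 CPM in ML of the mutant, so library B of ML exceeded library A in both genotypes. The LP over ML log2 ratio was -0.30 (-0.46 to -0.15) in WT, and mutant cells had -0.28 (-0.43 to -0.14). Like *Cldn4* it was highest in cluster 10 (101 CPM in WT, 107 CPM in the mutant) and low in clusters 2, 5 and 6 (25.2 to 31.4 CPM in WT).

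*Ocln* (chr13:100496507-100552718, minus strand), which encodes occludin, a transmembrane protein of the strands, was another LP gene. Its LP level was 67.1 CPM in both WT libraries and 64.8 and 62.2 CPM in the mutant libraries, and its ML level was 29.69 and 30.004 CPM in WT and 32.5 CPM in both mutant libraries. LP exceeded ML by a log2 ratio of 1.17 (1.03 to 1.31) in WT and of 0.96 (0.82 to 1.11) in the mutant. *Tjp1* (chr7:65296165-65527781, minus strand), which encodes the scaffold ZO-1, had 41.4 and 48.4 CPM in LP and 24.7 and 28.1 CPM in ML of WT, and 44.5 and 42.3 CPM in LP and 24.8 and 29.5 CPM in ML of the mutant. Its log2 ratios of LP over ML were 0.77 (0.60 to 0.93) and 0.67 (0.50 to 0.84). It was highest in cluster 1 (47.4 CPM in WT), and no 2 neighbours in its order of WT clusters had separate intervals.

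*F11r* (chr1:171437535-171464603, plus strand), which encodes JAM-A, and *Cdh1* (chr8:106603351-106670246, plus strand), which encodes E-cadherin, differed by a log2 ratio of less than 0.5 between LP and ML. *F11r* had 166 and 184 CPM in LP and 153 and 154 CPM in ML of WT, and 180.2 and 173 CPM in LP and 158 and 157 CPM in ML of the mutant. Its LP over ML log2 ratios were 0.19 (0.11 to 0.27) and 0.16 (0.08 to 0.24). *Cdh1* had 91.7 and 100.1 CPM in LP and 71.0 and 76.0 CPM in ML of WT, and 104 and 98.8 CPM in LP and 73.5 and 72.9 CPM in ML of the mutant, with log2 ratios of 0.39 (0.28 to 0.49) and 0.46 (0.36 to 0.57). Cluster 9, an ML cluster of cells with few UMIs (medians of 1532 and 1355), had the most *Cdh1*, at 111 CPM in WT from 79 UMIs and 142 CPM in the mutant from 94 UMIs. In WT its interval overlapped that of cluster 1 (99.2 CPM).

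**Figure D1:**
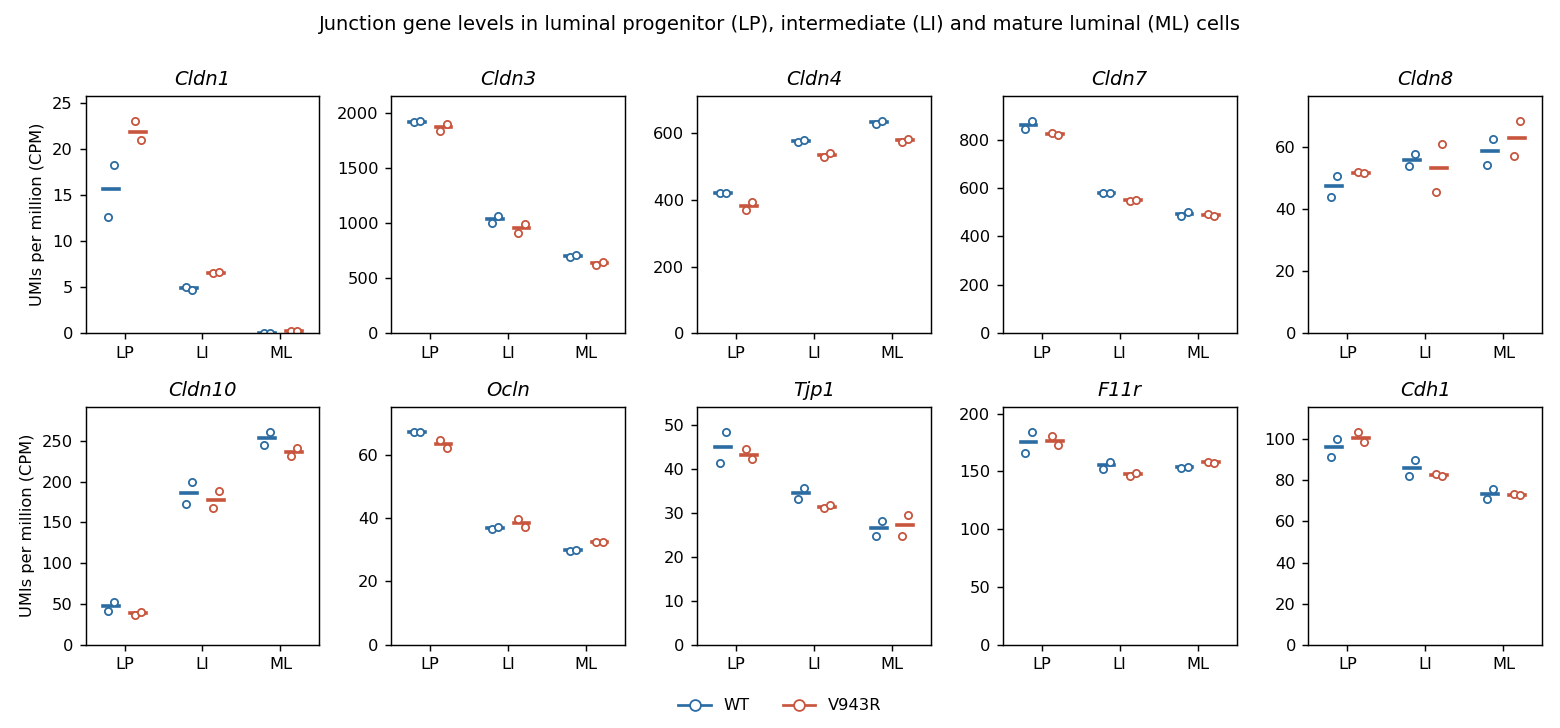
Levels of the 10 genes in CPM (vertical axes start at 0) in luminal progenitor (LP), luminal intermediate (LI) and mature luminal (ML) cells, with 1 open circle per library and a line for the pool of WT (blue) and mutant (red) cells. *Cldn1*, *Cldn3*, *Cldn7*, *Ocln* and *Tjp1* step down from LP to ML, *Cldn4* and *Cldn10* step up, and the distance between genotypes is small beside these steps except for *Cldn1* in LP.

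For calls between LP and ML, a gene had to differ by a fold of 2 or more in the same direction in both libraries of a genotype, with at least 50 UMIs in the higher class. *Cldn1*, *Cldn3* and *Ocln* met this towards LP in WT, where 10.1% of 15320 genes did, and *Cldn1* and *Cldn3* did in the mutant, where 10.9% of 14937 genes did. *Cldn10* met it towards ML in both, where 8.26% of WT and 8.3% of mutant genes did. The share of members was thus 3 of 10 and 2 of 10 towards LP and 1 of 10 towards ML. *Ocln* fell short in the mutant at a fold of 1.95 against 2.25 in WT, and the difference between genotypes was not tested. The genes used for the clustering are not given in the sources used here and may include the members, so these values describe the classes and do not test them. When libraries were scaled by the median of ratios over genes in place of total UMIs, LP over ML shifted by a median of -0.24 in WT and -0.27 in the mutant on the log2 scale. *F11r* then changed sign (to -0.05 and -0.11) and *Ocln* of WT fell under the fold of 2 (0.93).

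**Figure D2:**
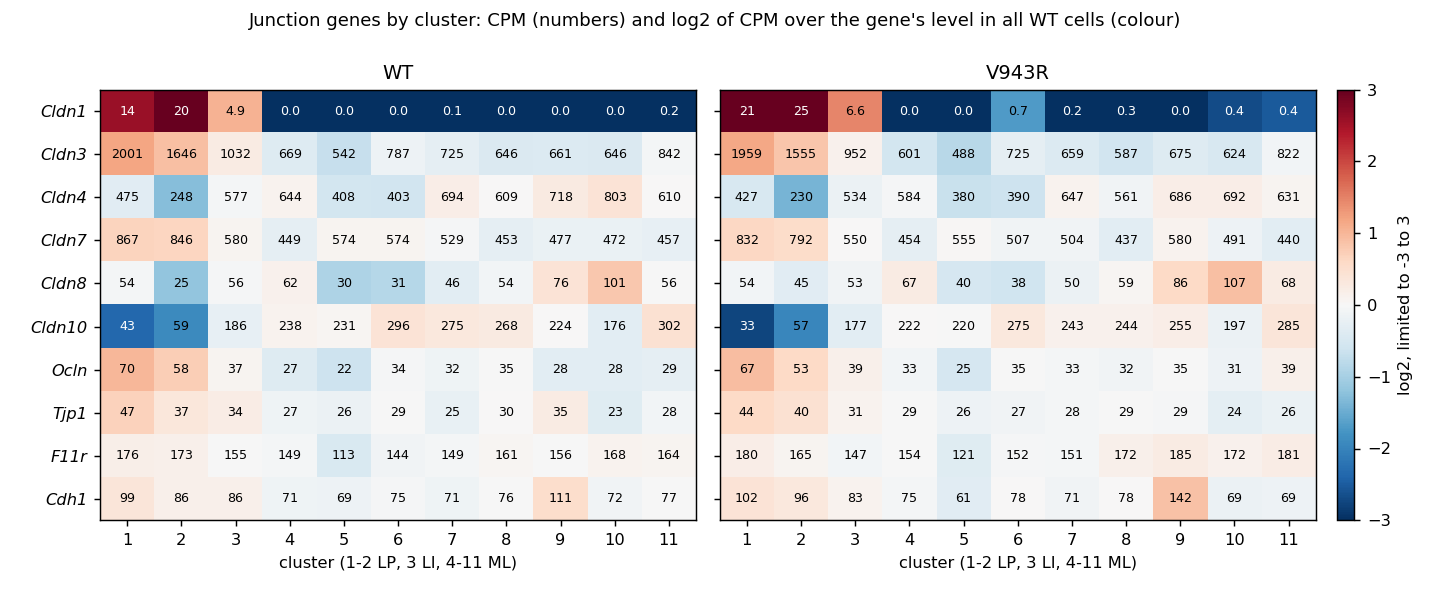
Level of each gene in the 11 luminal clusters of WT (left) and mutant (right) cells, with the CPM as a number and the log2 of CPM over the level in all WT cells as colour, limited to -3 to 3. The dark corner of *Cldn1* in clusters 4 to 11, the blue of *Cldn10* in clusters 1 and 2, and the joint high of *Cldn4* and *Cldn8* in cluster 10 recur in both genotypes.

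All claudins together made up 3381 CPM in LP and 2213 CPM in ML of WT, and 3253 and 2058 CPM in the mutant. In LP of WT, *Cldn3* supplied 56.7% of claudin UMIs, *Cldn7* 25.5%, *Cldn4* 12.5% and *Cldn10* 1.39%. In ML of WT the shares were 31.8%, 22.3%, 28.6% and 11.4% in the same order. LI cells had 41.1% *Cldn3*, 23.1% *Cldn7*, 23.0% *Cldn4* and 7.41% *Cldn10*, and the part of doublets in these LI shares was not tested. In the mutant the shares of these 4 claudins were 57.4%, 25.3%, 11.7% and 1.18% in LP and 30.9%, 23.7%, 28.1% and 11.5% in ML, so the 2 classes differed from each other far more than the genotypes did. Claudins other than the 6 members supplied 2.03% of claudin UMIs in LP and 3.25% in ML of WT.

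**Figure D3:**
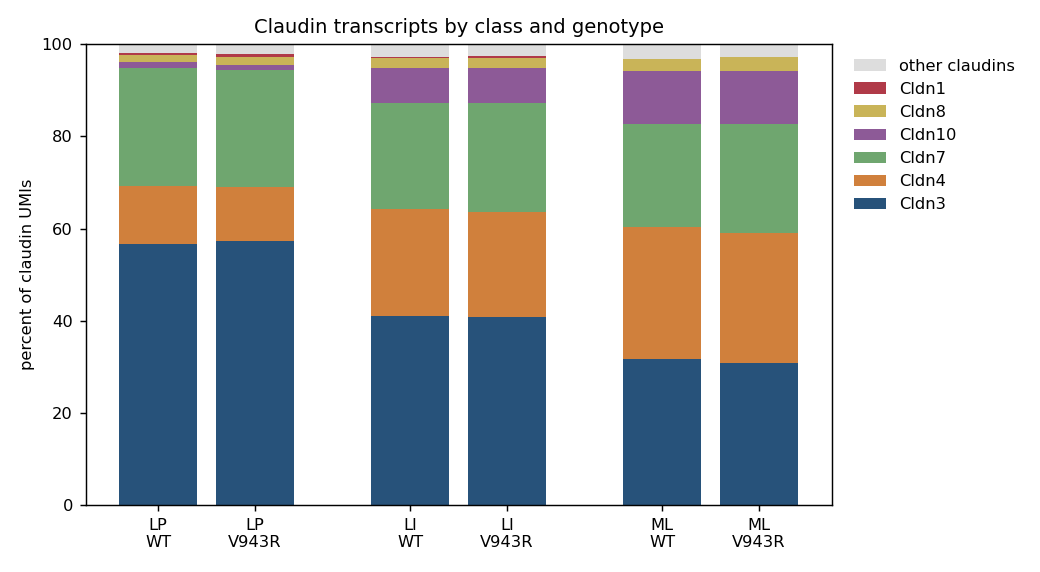
Stacked bars give the percent of all claudin UMIs that came from each claudin in LP, LI and ML cells of WT and mutant pools (bars sum to 100). *Cldn3* falls from 56.7% in LP to 31.8% in ML of WT while *Cldn4* and *Cldn10* grow from 12.5% and 1.39% to 28.6% and 11.4%.

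Per cell, the members were compared at an equal depth of 1000 UMIs, drawn at random from those of each cell, and 45 WT and 252 mutant cells with fewer were not used. A UMI of *Cldn3* was then found in 84.5% (83.2 to 85.7) of WT and 83.3% (81.9 to 84.6) of mutant LP cells, and in 50.3% (49.5 to 51.1) of WT and 47.2% (46.2 to 48.2) of mutant ML cells. *Cldn4* was found in 31.0% (29.4 to 32.6) of WT and 30.2% (28.6 to 31.9) of mutant LP cells, and in 45.3% (44.5 to 46.1) and 42.8% (41.9 to 43.9) of ML cells. *Cldn10* was found in 3.14% (2.56 to 3.81) and 2.71% (2.16 to 3.36) of LP cells and in 21.4% (20.7 to 22.1) and 20.9% (20.1 to 21.7) of ML cells. Before thinning, at median UMIs per cell of 2018 and 2067 in LP and 3508 and 4070 in ML, *Cldn3* was found in 95.9% and 95.1% of LP and 87.7% and 88.1% of ML cells, *Cldn4* in 50.6% and 50.6% of LP and 81.3% and 82.8% of ML cells, and *Cldn10* in 8.39% and 7.72% of LP and 55.5% and 58.8% of ML cells. The rare cells carry immune, endothelial and fibroblast markers (summed to 12659, 677 and 1685 CPM in WT), but also luminal markers (8642 CPM in WT), and are given as the cells that should make the least of these genes. They held a UMI of *Cldn3* in 13.5% (8.06 to 20.7) of WT and 8.18% (3.81 to 15.0) of mutant cells after thinning. Without thinning these shares were 32.5% and 19.3%, at median depths of 1922 and 1680 UMIs. After thinning the rare cells reached 16.7% (10.6 to 24.3) and 6.36% (2.60 to 12.7) for *Cldn4*. For *Cldn10* they reached 3.17% (0.87 to 7.93) and 1.82% (0.22 to 6.41), intervals that include its LP shares. The part of free RNA in the LP share of *Cldn10* was not tested. *F11r*, which endothelial cells and leukocytes also make, was found in 10.3% of WT and 14.5% of mutant rare cells, against 14.7% and 14.8% of ML cells.

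The mean number of members found per thinned cell was 2.17 in WT and 2.15 in mutant LP cells, 2.03 and 2.01 in LI, 1.88 and 1.84 in ML, and 0.62 and 0.47 in rare cells. UMIs of both *Cldn3* and *Cldn4* were found in 26.9% of WT and 26.5% of mutant LP cells and in 23.6% and 21.3% of ML cells. Without thinning these shares were 49.4% and 49.2% in LP and 72.8% and 74.9% in ML, at the unequal depths given above. Cells with no member UMI made up 3.24% and 4.44% of LP cells and 10.2% and 11.5% of ML cells after thinning.

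Between genotypes, the 10 genes differed little. A gene was counted as differing when its level changed by a fold of 1.5 or more, both mutant libraries lay beyond both WT libraries, and at least 50 UMIs were counted in the genotype with the higher level. Over all cells, 1 member did so (*Cldn1*), where 4.41% of 16450 genes did. Within LP, LI and ML and within cluster 11, an ML cluster that held 15.4% of WT and 4.85% of mutant cells, none of the members did, beside backgrounds of 2.83%, 3.86%, 4.43% and 3.91%. In ML and cluster 11 only 9 members had enough UMIs to be counted, since *Cldn1* had too few. Cluster 11 held 9405963 UMIs in WT and 2407631 in the mutant. A gene can therefore be called lower there at a lower level than is needed to be called higher, and the background of cluster 11 mixes both.

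*Cldn1* had 2.08 and 2.63 CPM in the WT and 4.10 and 4.04 CPM in the mutant libraries over all cells, a log2 ratio of mutant over WT of 0.78 (0.50 to 1.07). Both mutant libraries were above both WT libraries. LP cells, the main source of *Cldn1* UMIs, made up 17.1% of the WT and 22.6% of the mutant pool. With the mutant clusters weighted as in WT the ratio was 0.54, under the fold of 1.5. Within LP the ratio was 0.49 (0.16 to 0.82), and the 4 pairs of 1 mutant and 1 WT library gave 0.20 to 0.87. Without WT library B the LP ratio rose to 0.79 and met the rule. In cluster 1 it was 0.56 (0.17 to 0.96), from 93 WT and 140 mutant UMIs, and in cluster 2 it was 0.30 (-0.33 to 0.94), from 40 and 50 UMIs.

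Among the 11 luminal clusters taken singly, 1 call was made for a member, that of *Cldn8* in cluster 2, the smaller LP cluster, where 2.99% of 6430 genes met the rule. This cluster was looked at after its values were seen. There it had 25.8 and 24.6 CPM in WT and 33.6 and 55.2 CPM in the mutant, from 50 and 91 UMIs, a log2 ratio of 0.84 (0.33 to 1.37). Mutant library B was far above library A, and both were above WT. Without mutant library B the ratio was 0.41, under the fold of 1.5. In cluster 1 its ratio was -0.02 (-0.23 to 0.20).

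*Cldn3* and *Cldn4* were slightly lower in the mutant. In ML the log2 ratio of *Cldn3* was -0.15 (-0.17 to -0.12) and that of *Cldn4* was -0.13 (-0.15 to -0.10), and in both genes the 2 mutant libraries were below the 2 WT libraries. With the mutant clusters weighted as in WT, these ML ratios were -0.10 and -0.11. In LP the ratios were -0.04 (-0.07 to -0.01) and -0.14 (-0.21 to -0.08). *Cldn4* had 422 CPM in WT and 382 CPM in mutant LP cells, beside 274 and 190 CPM in rare cells. In rare cells it was also lower in the mutant with libraries apart (-0.53, -1.02 to -0.05). The part of free RNA in the LP ratio of *Cldn4* was not tested. *Cldn3* was lower in 10 of 11 luminal clusters, with libraries apart in 8 of them, and *Cldn4* also in 10 of 11, with libraries apart in 7. The clusters come from the same 4 libraries, so they are not separate observations. Shares over all genes were not counted for each cluster, but in ML as a whole 26.7% of genes were lower with libraries apart. The exceptions were cluster 9 for *Cldn3* (0.03) and cluster 11 for *Cldn4* (0.05), whose libraries overlapped.

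*Cldn10* was lower in the mutant by log2 ratios of -0.29 (-0.50 to -0.07) in LP and -0.10 (-0.14 to -0.06) in ML, with libraries apart in both. Over the alternative settings, which include leaving out each library, the LP ratio ranged from -0.46 to -0.10. The LP value rests on levels that rare cells exceeded (79.0 CPM in WT and 62.2 CPM in the mutant), and the part of free RNA in it was not tested. Within ML the direction differed between clusters. *Cldn10* was lower in clusters 4, 6, 7, 8 and 11 and higher in clusters 9 and 10 with libraries apart. In cluster 10 it had 176 CPM in WT and 197 CPM in the mutant (0.16, 0.07 to 0.26). The intervals of cluster 9 (0.18, -0.14 to 0.50) and cluster 11 (-0.08, -0.21 to 0.04) include 0. Shares over all genes were not counted for each cluster. In ML as a whole 26.7% of genes were lower and 27.6% higher with libraries apart. *Cldn7* was lower in LP (-0.07, -0.12 to -0.02) and not apart in ML as a whole (-0.02, -0.04 to 0.01). By cluster *Cldn7* was lower in 8 of 11, with libraries apart in 7, among them ML clusters 6, 7, 8 and 11. The intervals of clusters 2 (-0.20 to 0.004), 8 (-0.12 to 0.02) and 11 (-0.16 to 0.04) include 0. These clusters share their libraries and are not separate observations. Over all genes, 18.1% in LP, 22.5% in LI and 26.7% in ML were lower with libraries apart.

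*Ocln* was higher in ML of the mutant by a log2 ratio of 0.12 (0.02 to 0.22), with the 2 libraries of each genotype nearly equal. In LP its ratio was -0.08 (-0.25 to 0.09). The highest ratio of *Ocln* was in cluster 11, at 0.41 (0.05 to 0.75), from 274 WT and 93 mutant UMIs. *F11r* was higher in 9 of 11 clusters with libraries apart in 6, and its ratio in ML as a whole was 0.042 (-0.003 to 0.087). These clusters share their libraries, and in ML as a whole 27.6% of genes were higher with libraries apart. *Cldn8* had a ratio of 0.27 (0.01 to 0.52) in cluster 11 with libraries apart, and 0.10 (0.03 to 0.18) in ML, where the libraries overlapped. For *Tjp1* and *Cdh1* the libraries of the genotypes overlapped in LP, ML and cluster 11. Their ML ratios were 0.04 (-0.07 to 0.15) and -0.01 (-0.07 to 0.06). In cluster 11 *Tjp1* had a ratio of -0.10 (-0.52 to 0.31), and without mutant library B it was -0.64 and met the rule.

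**Figure D4:**
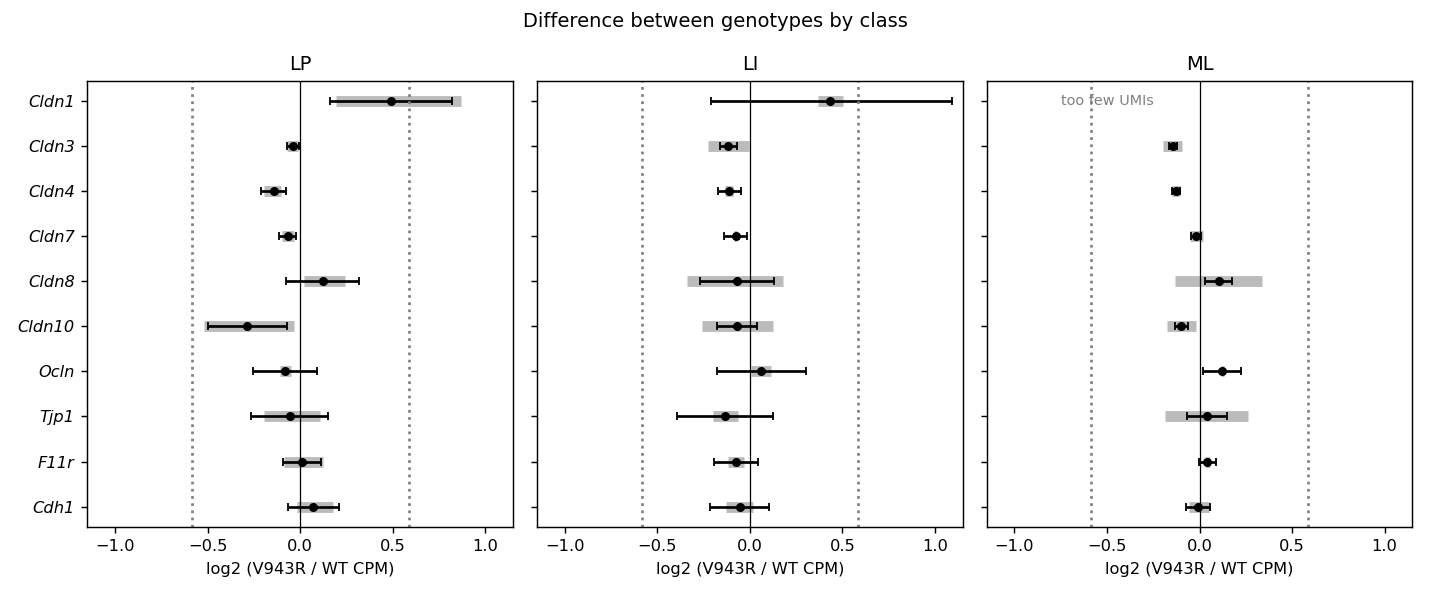
Log2 ratio of mutant over WT CPM for each gene in LP, LI and ML cells, with the counting interval (black), the range of the 4 pairs of 1 mutant and 1 WT library (grey) and the fold of 1.5 (dotted). Points lie between -0.29 and 0.12 for all genes other than *Cldn1*, whose LP and LI values are 0.49 and 0.43 and which had too few UMIs in ML.

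Counted by libraries alone, without a fold, the mutant libraries were both above or both below the WT libraries for many genes. Over all cells 31.8% of genes were higher and 22.5% lower in this sense, and the members were 3 of 10 higher (*Cldn1*, *Ocln*, *F11r*) and 2 of 10 lower (*Cldn4*, *Cldn10*). In LP 2 of 10 members were higher (*Cldn1*, *Cldn8*) beside 23.1% of genes, and 5 of 10 were lower (*Cldn3*, *Cldn4*, *Cldn7*, *Cldn10*, *Ocln*) beside 18.1%. In LI 2 of 10 were higher (*Cldn1*, *Ocln*) beside 23.2%, and 5 of 10 were lower (*Cldn3*, *Cldn4*, *Cldn7*, *Tjp1*, *F11r*) beside 22.5%. In ML 2 of 9 were higher (*Ocln*, *F11r*) beside 27.6%, and 3 of 9 were lower (*Cldn3*, *Cldn4*, *Cldn10*) beside 26.7%. In cluster 11 3 of 9 were higher (*Cldn8*, *Ocln*, *F11r*) beside 24.9%, and 2 of 9 were lower (*Cldn7*, *Cldn10*) beside 18.7%. The median log2 ratio of the members was -0.05 in LP, -0.07 in LI and -0.01 in ML, against 0.02, 0.00 and 0.00 for all genes. Summed over the members, the level was 3696 CPM in WT and 3566 CPM in mutant LP cells, and 2425 and 2292 CPM in ML cells. The summed level of 6 immediate early and heat shock genes that respond to tissue dissociation was also lower in the mutant, from 20473 to 16514 CPM in LP, from 17885 to 13467 CPM in LI, from 15257 to 12592 CPM in ML and from 19423 to 17261 CPM in cluster 11, and its part in the junction values was not tested. *Hspa1b* of this list went the other way, from 5.40 to 8.18 CPM in LP. Summed fibroblast markers in ML were 14.4 CPM in WT and 4.88 CPM in the mutant, mostly *Dcn* (13.6 and 3.94 CPM), and their part was likewise not tested.

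Other junction genes were taken from 5 lists. Of 16 other claudins, 3 had enough UMIs in ML and none met the fold of 1.5 in LP, LI or ML. The highest over all WT cells were *Cldn6* (56.6 CPM), *Cldn23* (9.10 CPM) and *Cldn12* (4.35 CPM). *Cldn23* had 48.4 CPM in LP and 2.08 CPM in ML of WT, and *Cldn6*, a claudin best known from embryonic epithelia, had 10.4 and 65.0 CPM, so both met the rule between classes in opposite directions. *Cldn6* in ML was 62.0 and 67.8 CPM in WT and 48.4 and 50.6 CPM in the mutant (log2 ratio -0.39, -0.47 to -0.32), and in LI it was also lower with libraries apart. It went the other way with libraries apart in cluster 11 (0.36) and in LP (10.4 CPM in WT and 11.4 CPM in the mutant).

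Of 26 other tight junction genes, 22 had enough UMIs in ML and 1 met the rule between genotypes there, *Igsf5*, which encodes JAM4, a junctional adhesion molecule like JAM-A. *Igsf5* rose in every class by the rule. In ML it had 643 and 564 CPM in WT and 1182 and 1233 CPM in the mutant, a log2 ratio of 1.007 (0.987 to 1.026). In LP it had 69.4 and 60.4 CPM in WT and 106 and 110.0 CPM in the mutant (0.74, 0.59 to 0.90), in LI 353 and 790 CPM in the pools (1.16, 1.10 to 1.23), and in cluster 11 62.9 and 95.1 CPM (0.60, 0.37 to 0.82). *F11r* of the same family of adhesion molecules had ML ratios of 0.031 to 0.054 over the 4 pairs of libraries. *Magi1*, a scaffold of the junction, met the rule in cluster 11 only, where it was lower (12.7 and 7.89 CPM, from 119 and 19 UMIs, with an interval of -1.46 to 0.03). With fewer mutant UMIs in that cluster, a call of lower is easier to meet than a call of higher. *Lsr* and *Crb3*, the other tight junction genes with the highest levels, had 336 and 136 CPM in WT and 348 and 151 CPM in mutant ML cells. Between classes 9 of 22 tight junction genes met the rule towards LP in WT, among them *Cgnl1*, *Marveld2* and *Cxadr*, and *Igsf5* alone met it towards ML, beside 10.1% and 8.26% of all genes.

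Among 15 adherens junction genes, 12 had enough UMIs in each of LP, LI and ML, and none of these met the fold of 1.5 there. Over all cells *Nectin3* did, at 1.22 CPM in WT and 0.77 CPM in the mutant, but it had too few UMIs to be counted in LP or ML. The cadherin partners *Ctnnb1*, *Ctnna1* and *Jup* had ML levels of 139, 149 and 131 CPM in WT and 141, 150.3 and 135 CPM in the mutant. Among 8 desmosome genes 1 met the rule, *Dsc2* in LI (15.4 and 23.4 CPM, log2 ratio 0.61, 0.26 to 0.96). The part of doublets in this LI value was not tested. *Perp*, *Pkp3* and *Dsp*, the desmosome genes with the highest levels, had 192, 87.1 and 62.0 CPM in WT and 242, 84.8 and 62.7 CPM in mutant ML cells. Among 16 regulators of epithelial junction genes, 10 had enough UMIs in each class, and none of these met the rule there. *Snai1*, a repressor of *Cdh1*, met it over all cells, at 0.96 CPM in WT and 0.62 CPM in the mutant, but had too few UMIs to be counted in LP or ML. *Klf4*, an epithelial transcription factor, had 334 and 344 CPM in WT and 220.0 and 246 CPM in mutant LP cells (-0.54, -0.62 to -0.45), and 197 CPM in WT and 186 CPM in mutant ML cells (-0.08, -0.12 to -0.04). The summed dissociation genes given above were also lower in mutant LP and ML cells, and their part in the *Klf4* values was not tested. *Elf3* and *Klf5*, the regulators next in level over all WT cells, had 136 and 93.5 CPM in WT and 123 and 86.3 CPM in mutant LP cells.

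The pattern of each member over the 22 combinations of 11 luminal clusters and 2 genotypes was compared with that of 2131 genes with at least 50 UMIs in every WT cluster, by Pearson's r of log2 (CPM + 1). These points share libraries and depth, and r is given as a description. The gene most like *Cldn10* was *Foxa1*, a transcription factor of ML cells (r = 0.99), followed by *Gipc2* and *Fam25c* (both 0.98). The gene most like *Ocln* was *Cldn3* (0.94), followed by *Ccnl1* and *Nr4a1* (both 0.93). *Cldn3* was most like *Psap*, *Apobec3* (both 0.98) and *Nr4a1* (0.97), and *Cldn1* most like *Wfdc18*, *Apobec3* (both 0.98) and *Cd81* (0.96). *Cldn4* was most like *Mvp* (0.96), *Grina* and *Neu1* (both 0.94), *Cldn7* most like *Dbi* (0.95), *Actn4* and *Reep5* (both 0.94), and *Cldn8* most like *Ctsd* (0.91), *H2-T23* (0.90) and *Cd63* (0.88). For *Tjp1* these genes were *Ccnl1*, *Nfib* and *Tpm1* (0.94, 0.93 and 0.91), for *Cdh1* *Ccnl2*, *Rsbn1l* and *Son* (0.94, 0.93 and 0.89), and for *F11r* *Gpr108*, *Map1b* and *Ppfibp2* (0.85, 0.82 and 0.82), the lowest of the members. Between members, *Cldn3* ran with *Cldn1* (0.93) and against *Cldn10* (-0.88), and *Cldn4* ran with *Cldn8* (0.76) and against *Cldn7* (-0.70).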

How the data were processed

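Luminal cells of 1 WT and 1 mutant pool of 3 mice each were profiled with 10x 3′ v2 chemistry, as 2 technical libraries per pool. The deposited values are a signal for 52636 genes in 32439 cells, made by the authors by scaling all UMIs of each cell alike, together with the library, genotype, cluster and class of each cell. The submitters' processing notes name CASAVA 1.8, bcl2fastq 2.20, GSNAP and GRCm38, and the study's methods name Partek Flow with Seurat clusters at a resolution that was not changed here. The values of each cell were divided by the smallest nonzero one, and the quotients, all within 0.00992 of a whole number, were used as UMIs. All cells were used. Scrublet called 1 cell a doublet (0.00308%), which is not a working call, so none were taken out.

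UMIs were summed by library and class or cluster and divided by the total. The call between genotypes needed a fold of 1.5, 50 UMIs and separate libraries, and the call between LP and ML a fold of 2 in both libraries and 50 UMIs. With 1 pool per genotype no test was made. An exact binomial, Poisson or conditional binomial interval covers counting error only, and barcodes of 1 library share its source.

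The members, gene lists and rules were chosen with earlier results of these data known. The genes named were the 10 members, *Erbb3*, the 3 genes of each list with the highest level over WT cells, every listed gene that met the rule in LP, LI, ML or cluster 11, and the 3 genes most like each member. *Nectin3*, *Snai1*, *Cgnl1*, *Marveld2* and *Cxadr* fall outside this rule and were chosen after their values were seen, as were *Hspa1b* and *Dcn*, and the 7 motifs were chosen at the same stage. The lists held luminal progenitor, mature luminal, luminal, basal, proliferating, immune, endothelial, fibroblast and dissociation stress markers, and other claudin, tight junction, adherens junction, desmosome and regulator genes. Alternatives were leaving out each library, median-of-ratios scaling, means of deposited values, other folds (1.25 and 2) and minimums (20 and 100 UMIs), calls without the condition on libraries, cells other than the 10% of lowest UMIs or the 6% of highest doublet scores, the WT cluster makeup, and thinning to 500 or 2000 UMIs.

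Promoter windows came from RefSeq on GRCm38.p6, which matched 8 of the 10 members (*Cldn8* and *Cdh1* had no entry), and gene positions from GENCODE. Python 3.11.15 was used with numpy 2.4.6, pandas 2.3.3, scipy 1.17.1, scanpy 1.11.5 and matplotlib 3.10.9, and random steps had a seed of 1.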

Additional observations from a re-analysis of the deposited data

Results flagged for a closer look

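In 2 genes both mutant libraries lay on opposite sides of the WT libraries in different luminal classes. The share of all genes that did so was not counted. In LP, LI and ML taken singly, 18.1% to 27.6% of genes had libraries apart in a given direction. *Ocln* had a log2 ratio of mutant over WT of -0.0834 in LP, 0.0617 in LI and 0.122 in ML. *F11r* had a ratio of -0.0758 in LI and 0.0421 in ML. The difference between classes was not tested in either gene, since there was 1 pool per genotype, and the intervals of the LP and LI ratios of *Ocln* and of the LI and ML ratios of *F11r* include 0.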

How the results depend on the processing

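No paired analysis was possible because the columns of the table carry no replicate numbers of the libraries and no test was made between genotypes. With a fold of 2 in place of 1.5, 0 members met the rule over all cells. With the lower of the other folds, 1 member met it in LP (*Cldn1*), 1 in LI (*Cldn1*) and 1 in cluster 11 (*Ocln*). Shares over all genes were not counted at other folds or with a library left out, so these counts have no background. Leaving out a library in turn gave 0 to 1 members in LP (*Cldn1* without WT library B) and 0 to 1 in cluster 11 (*Tjp1* without mutant library B). The other 54 of 60 counts between genotypes stayed within 1.5 times the reported count, as did all 24 counts between LP and ML. Of 413 recomputed genotype ratios, 378 moved by less than the spread between libraries and 33 had the other sign, none of them that of *Cldn1* over all cells. Of 120 recomputed ratios of LP over ML, 68 moved by less than the spread between libraries and 52 by more, and 2 had the other sign, both those of *F11r* under median-of-ratios scaling. A ratio with 1 library left out could hardly move by more than this spread, which comes from the same libraries. That part of both counts therefore does not measure stability. *Cldn1* over all cells ranged from 0.54 to 0.97, and the lowest value, at the WT cluster makeup, is under the fold of 1.5, an alternative for which no count of members was made. Of the LI cells, 47.3% of WT and 50.6% of mutant cells were among the 6% with the highest doublet scores, against at most 9.47% in any other cluster, and *Cldn1* in LI ranged from 0.38 to 0.51 over all alternatives. Shares of cells moved beyond their counting interval with the number of UMIs kept in 174 of 180 cases. *Cldn1* in ML and cluster 11 had too few UMIs for a ratio.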
